A study of Homo sapiens with 4 samples.

Results

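The fibroblast growth factor (FGF) pathway was examined in DNA methylation data from SKOV3 cells, an established human ovarian cancer line. The genes were 33 members in all, made up of 20 FGF ligands, 7 receptors and co-receptors (FGFR1 to FGFR4, FGFRL1, KL, KLB) and 6 intracellular feedback regulators (SPRY1, SPRY2, SPRY4, SPRED1, SPRED2, SPRED3), out of 19229 autosomal protein-coding genes. A member locus was the span of the gene in the GENCODE annotation of GRCh37 (hg19) extended by 5 kb on each side, and its tiles were the 1000 bp windows of the deposited tables that overlapped it. These loci held 118 different tiles, of which 27 also overlapped another annotated gene, not each of which is named below. The genes were taken by pathway membership, and the rule uses no methylation value, but the members were proposed with earlier results of these data known.

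Methylation was measured by reduced representation bisulfite sequencing (RRBS), in which genomic DNA is cut by MspI at CCGG sites regardless of methylation, short fragments are kept, and unmethylated cytosines are converted by bisulfite. There were 4 libraries, 1 for each stable SKOV3 clone, titled ShC-S, ShLy75-S, Ly75-KO-S and Ly75-OV-S in the labels and called shC-S, sh-LY75-S, LY75-KO-S and LY75-R-S here. The shC-S clone carried a control shRNA and had a mesenchymal (M) phenotype. The sh-LY75-S clone carried an shRNA against LY75, an endocytic receptor of the mannose receptor family, and the LY75-KO-S clone had LY75 disrupted by CRISPR, and both had an epithelial (E) phenotype. The LY75-R-S clone was made from LY75 shRNA cells by adding back LY75, which the labels call LY75 overexpression on top of LY75 suppression by shRNA, and it had an M phenotype. Each condition was thus a single clone, so that LY75 status and differences between clones cannot be told apart. LY75 expression itself was not measured in these data, and neither were markers of the M or E phenotype.

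The knockdown comparison set sh-LY75-S against shC-S, and the knockout comparison set LY75-KO-S against LY75-R-S. A comparison labelled mix set both E clones against both M clones, and since it was made from the same 4 libraries it is not an independent measurement. Every value below is a difference in percentage points of methylation, E minus M, as the authors deposited it, so a positive value means more methylation in the E clone. The tables list only tiles with a difference of at least 25 points and a q-value of 0.01 or less. The q-value rests on the reads of the libraries compared and carries no spread between cultures, and each single comparison has 1 library on either side. The tables used here hold no value per library, so no test between conditions was made, for the mix either, and no SD is given. With no read counts in these tables depth is unknown, and for a tile that is not listed a small difference and too few reads cannot be told apart. The direction of the knockdown comparison was set with the genes whose direction the study states, of which 10 of 10 fitted a positive value as higher in E. The direction of the knockout comparison rests on the mix, which over 4250 tiles listed in all 3 comparisons followed both single comparisons with positive weights of 0.534 for the knockdown and 0.435 for the knockout.

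FGF ligands are secreted or intracellular proteins. The paracrine ligands bind receptor tyrosine kinases together with heparan sulfate, the endocrine ligands need the co-receptors KL or KLB, and the intracellular ligands act inside the cell, among others on voltage-gated sodium channels. Receptor signaling runs through the Ras and ERK cascade, and Sprouty and SPRED proteins dampen it. FGF signaling is known to promote epithelial-mesenchymal transition and invasion in several carcinomas, and methylation of CpG-rich DNA near a transcription start site (TSS) is generally linked with gene silencing, whereas methylation within gene bodies has no such simple relation to expression. Expression was not measured here.

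The sequences of the tiles on which the results below turn most show how differently dense the measured DNA was. Each is a stretch of 200 bases of the plus strand of GRCh37, the stretch of its tile outside annotated untranslated regions with the most CpG dinucleotides, and the capitals mark the CCGG sites of MspI. Among all autosomal windows of 200 bases, 12.4% held a CCGG. The FGF5 stretches belong to a pair of tiles near the TSS with opposite differences, FGFRL1 and SPRY4 to the largest losses near the TSS of a receptor and of a feedback regulator, and FGF12, chosen after its values were seen, to a CpG-poor intron.
FGF5 chr4:81187495-81187694: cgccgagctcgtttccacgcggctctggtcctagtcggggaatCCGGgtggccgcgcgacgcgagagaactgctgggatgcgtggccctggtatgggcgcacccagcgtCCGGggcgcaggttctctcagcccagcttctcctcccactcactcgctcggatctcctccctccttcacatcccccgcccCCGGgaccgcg
FGF5 chr4:81189699-81189898: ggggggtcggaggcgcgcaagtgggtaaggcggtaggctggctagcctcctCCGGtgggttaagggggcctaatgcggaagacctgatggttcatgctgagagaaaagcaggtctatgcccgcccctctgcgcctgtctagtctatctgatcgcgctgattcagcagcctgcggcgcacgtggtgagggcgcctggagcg
FGF12 chr3:192196305-192196504: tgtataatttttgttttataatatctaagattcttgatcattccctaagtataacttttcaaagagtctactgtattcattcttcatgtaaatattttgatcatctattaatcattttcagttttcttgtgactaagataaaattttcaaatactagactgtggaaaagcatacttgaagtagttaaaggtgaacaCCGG
FGFRL1 chr4:1006275-1006474: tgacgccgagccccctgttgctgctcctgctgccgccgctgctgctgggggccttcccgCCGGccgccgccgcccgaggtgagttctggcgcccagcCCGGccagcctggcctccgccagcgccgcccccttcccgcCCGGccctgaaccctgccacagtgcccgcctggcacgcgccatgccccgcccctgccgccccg
SPRY4 chr5:141705379-141705578: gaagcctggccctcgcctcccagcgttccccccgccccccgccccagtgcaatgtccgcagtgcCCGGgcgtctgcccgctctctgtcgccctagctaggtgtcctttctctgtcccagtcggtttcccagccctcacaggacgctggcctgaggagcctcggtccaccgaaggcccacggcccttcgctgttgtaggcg

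The stretches near the TSS held between 15 and 23 CpGs and the FGF12 stretch held 1. The FGF12 tile held 2 CpGs in its 1000 bases, neither reachable by the computed MspI fragments, whereas the FGF5 tile at the TSS held 67.

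In the knockdown comparison 25 of the 33 members (75.8%) had at least 1 listed tile, against 60.3% of all autosomal protein-coding genes. In the knockout comparison 23 members (69.7%) did, against 46.7% of all genes, and in the mix 18 (54.5%), against 38.2%. The members had 89, 44 and 38 listed tiles in the knockdown, the knockout and the mix. Counted per tile with a CpG that RRBS can reach, that is a CpG within 50 bp of the end of an MspI fragment of 40 to 220 bp, 17.7% of the 469 reachable tiles of the members were listed in the knockdown comparison, against 12.5% of all autosomal reachable tiles. The shares were 8.53% against 6.6% in the knockout comparison and 7.68% against 5.2% in the mix. Members were thus listed somewhat more often than all genes in each comparison, with a median of 11 reachable tiles per member and 10 per gene. Of the 118 member tiles 8 were listed although no CpG in them is reachable by this computation, 3 in FGF12, 2 in FGF5 and 1 each in FGF7, FGF14 and SPRED2. Of all autosomal listed tiles 8.84%, 12.3% and 7.84% had no reachable CpG in the knockdown, the knockout and the mix. These shares are descriptions, and no test was made of their differences.

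In the knockdown comparison and the mix most listed tiles of the members had more methylation in E. In the knockdown comparison 56 tiles were higher and 33 lower in E, which is 62.9% higher (95% Wilson interval 52.5 to 72.2%, for the count of tiles alone), beside 64.3% of all autosomal listed tiles. In the knockout comparison 24 were higher and 20 lower, 54.5% against 54.8%, and 45.5% of the member tiles would be higher with the opposite order of subtraction. The split of the members was therefore close to that of all tiles in both single comparisons. In the mix 31 were higher and 7 lower, 81.6% (66.6 to 90.8%) against 64.8%. These tiles lie in 18 genes and are not independent of one another, so the interval is no test of this gap. With a threshold of 50 points, the share of the member tiles higher in the mix was 63.6%. The median size of a difference was 47.7 points in the knockdown, 40.2 in the knockout and 40 in the mix, beside 50.0, 41.8 and 36.9 over all autosomal listed tiles. At the extreme of 100 points in size stood 10 of 89 member tiles in the knockdown comparison, 2 of 44 in the knockout and 0 of 38 in the mix. Of all autosomal listed tiles 13.1%, 9.32% and 0.478% did, so such differences were not particular to the members.

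**Figure D1:**
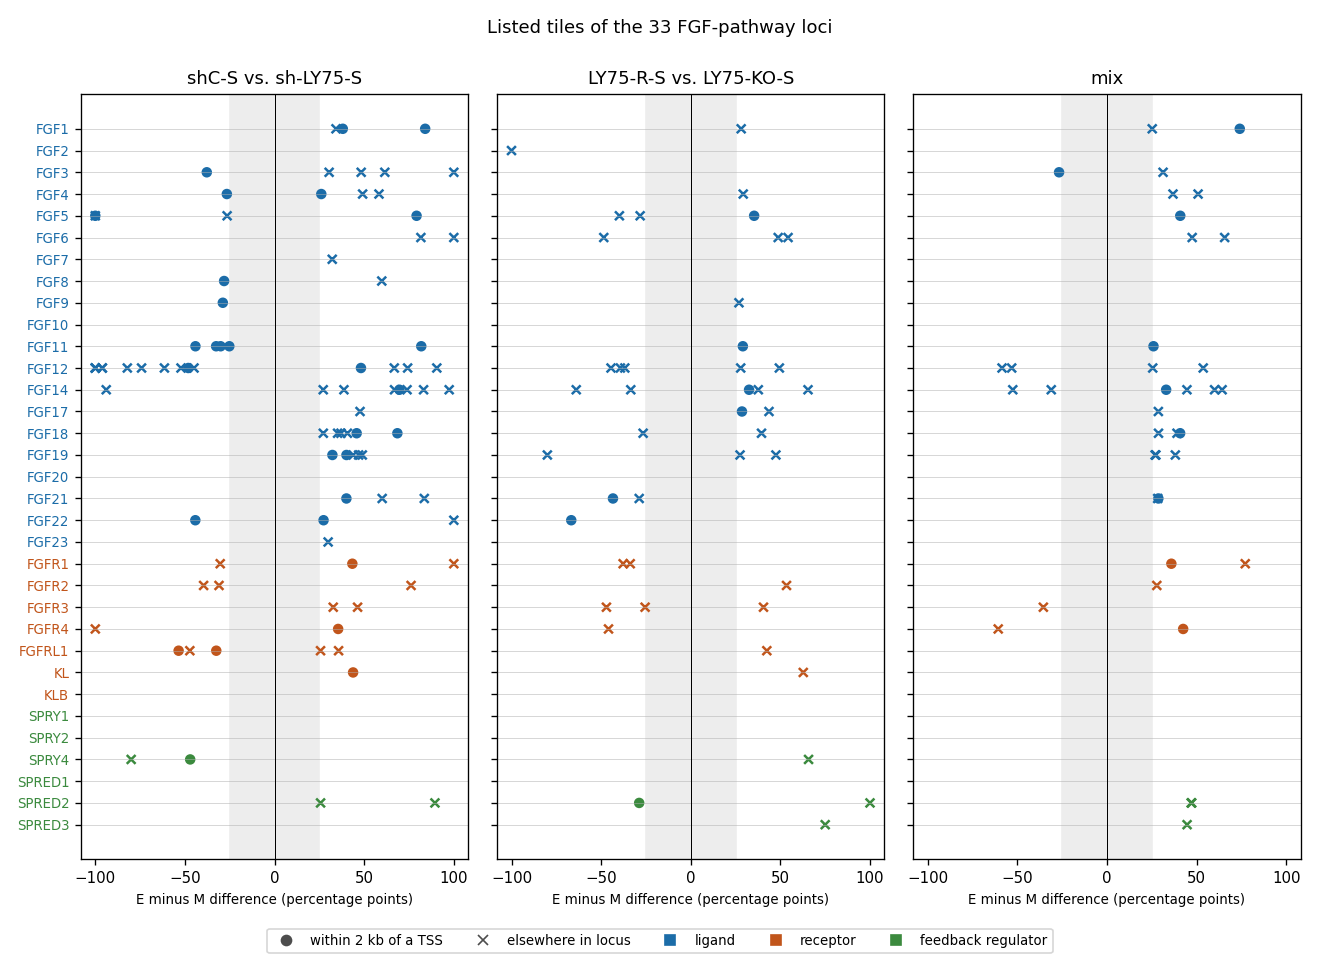
Differences in methylation, E minus M in percentage points, of the listed tiles of the 33 loci in the knockdown comparison (left), the knockout comparison (middle) and the mix (right). Each marker is 1 tile, filled circles lie within 2 kb of a TSS and crosses elsewhere in the locus, colours give the role, and the grey band from -25 to 25 points holds no tile because the tables list none there. The ligands carry 69 of the 89 knockdown tiles, and the rows of FGF10, FGF20, KLB, SPRY1, SPRY2 and SPRED1 are empty.

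Of the reachable tiles of the ligands 24.2% were listed in the knockdown comparison, 10.6% in the knockout and 10.6% in the mix. The receptors and co-receptors stood at 11.1%, 6.25% and 4.17%, and the feedback regulators at 4.92%, 4.92% and 3.28%. Ligands were above the share of all autosomal tiles in each comparison. The receptors, with 16, 9 and 6 listed tiles among 144 reachable ones, were near it, and the regulators rest on only 61 reachable tiles and 3 listed ones in each single comparison. The differences between roles were not tested. Without FGF12 and FGF14, which have the longest loci, the share of the ligands in the knockdown comparison was 23.8%.

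**Figure D2:**
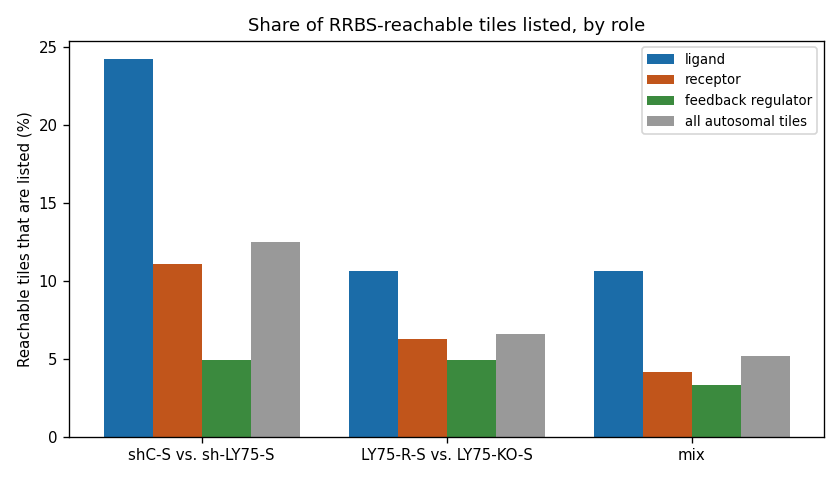
Share of RRBS-reachable tiles that are listed (percent), for ligands (264 tiles), receptors with co-receptors (144 tiles) and feedback regulators (61 tiles), beside all autosomal reachable tiles, in each comparison. The ligand bar is the tallest in all 3 comparisons, at 24.2% in the knockdown, and bars have no error because each clone has 1 library.

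Near a TSS, that is within 2 kb, 18 members (54.5%) had a listed tile in the knockdown comparison, against 29.6% of all genes. In the knockout comparison 7 members (21.2%) did, against 13.5%, and in the mix 9 (27.3%), against 14.8%. These shares were not adjusted for the number of TSS per gene or of reachable tiles near them. With the canonical TSS of each gene alone, 15, 6 and 7 members had such a tile in the knockdown, the knockout and the mix. No matching share of all genes was computed. The 30 member tiles near a TSS in the knockdown comparison were divided almost evenly, 16 higher and 14 lower in E (53.3% higher, beside 54.3% of all listed tiles near a TSS). Elsewhere in the loci 40 were higher and 19 lower (67.8%, beside 66.2%). The near tiles also had smaller differences, with a median size of 41.8 points against 59.8 for the tiles elsewhere, while over all autosomal tiles both medians were 50.0. In these comparisons of tiles the definitions differ. A member tile was near by a TSS of its own gene, an autosomal tile by a TSS of any protein-coding gene. Without FGF12 and FGF14 the medians were 40.1 near a TSS and 47.3 elsewhere, and 31 tiles elsewhere were higher and 8 lower (79.5%), so these long genes carried most of the gap in size. None of the 9 receptor tiles of the knockout comparison lay near a TSS.

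**Figure D3:**
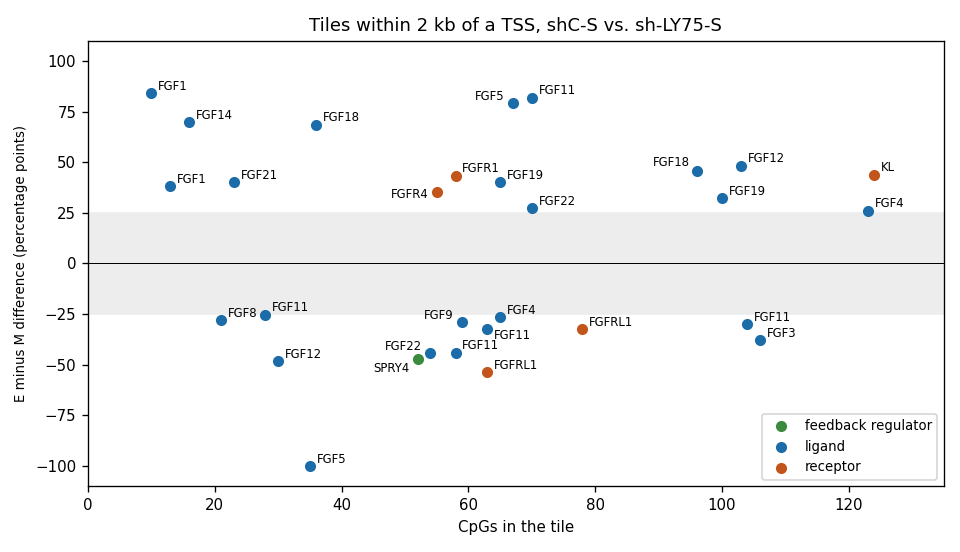
The 30 listed tiles within 2 kb of a TSS in the knockdown comparison, with the number of CpGs in the tile on the x axis and the difference, E minus M in percentage points, on the y axis. Colours give the role, and the grey band marks the range in which no tile is listed. FGF5 and FGF11 have tiles on both sides of 0, and the CpG-rich tiles of FGFRL1, FGF3 and SPRY4 lie below 0 while those of KL, FGF18, FGF19 and FGFR1 lie above it.

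Among the paracrine ligands, 24 tiles were higher and 8 lower in E in the knockdown comparison, 9 higher and 6 lower in the knockout, and 12 higher and 1 lower in the mix. FGF1, which binds all FGF receptors, gained methylation at 2 tiles near a TSS. At chr5:142023001-142024000, which holds a 5′ UTR exon and also overlaps the antisense gene SPRY4-AS1, the difference was 84.0 points in the knockdown comparison (q = 1.49e-92) and 74.1 in the mix. The intronic tile chr5:142063001-142064000 differed by 38.1 points in the knockdown alone. In the knockout comparison FGF1 had only a coding exon tile, at 28.1 points, so the gain near the TSS was listed in the knockdown and not in the knockout. The widely expressed FGF2 had a single tile, in an intron and in the knockout comparison, at -100 points (chr4:123775001-123776000).

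FGF5, a growth factor best known for ending the growth phase of hair, was the only member with a tile within 2 kb of a TSS that was listed in all 3 comparisons. This tile, chr4:81187001-81188000, with 67 CpGs over the 5′ UTR and the beginning of the coding sequence, was higher in E by 79.2 points in the knockdown comparison (q listed as 0), by 35.4 in the knockout (q = 1.8e-59) and by 40.9 in the mix. Both single comparisons thus gave more methylation in E at this tile, with a smaller size in the knockout. They share no library, but LY75-R-S was made from LY75 shRNA cells, so their clones are related. At 1183 bp from the TSS, the intronic tile chr4:81189001-81190000 went the other way, at -100 points in the knockdown comparison alone. Further into the gene, the knockdown comparison had differences of -100 and -26.5 points at 2 touching tiles, and the knockout had -28.2 and -39.8 points at other tiles, so every listed FGF5 tile beyond the TSS tile was lower in E.

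FGF3, FGF4 and FGF19 lie side by side on chromosome 11, in a region that is amplified in several carcinomas. In the knockdown comparison FGF19 had 5 tiles higher and 0 lower, FGF4 3 higher and 1 lower, and FGF3 4 higher and 1 lower. The lower tiles of FGF3 and FGF4 were both at the TSS. For FGF3 it held 106 CpGs and was at -37.8 points in the knockdown and -26.7 in the mix (chr11:69633001-69634000), while the tiles farther into the gene and downstream of it lay between 30.4 and 100 points. For FGF4 the tile over the TSS was at -26.6 points and the touching tile over the 5′ UTR and coding sequence, with 123 CpGs, was at 26.1. Both values are close to the limit for listing. Downstream of FGF4, the tile chr11:69580001-69581000 was higher by 58.3 points in the knockdown and 50.8 in the mix, and the tile chr11:69584001-69585000 was higher in all 3 comparisons, at 49.1, 29.3 and 36.8 points in the knockdown, the knockout and the mix.

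FGF6, a ligand known from skeletal muscle, was higher at the same 2 intronic tiles in all 3 comparisons. At chr12:4541001-4542000 the differences were 100 in the knockdown, 54.3 in the knockout and 47.5 in the mix, and at chr12:4550001-4551000 they were 81.6, 48.8 and 65.7. A downstream tile was at -48.5 points in the knockout comparison, at chr12:4534001-4535000.

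FGF8, FGF17 and FGF18 form a subfamily with roles in limb, brain and skeletal development. FGF18 had 6 tiles in the knockdown comparison, all higher in E, and 2 of them touched at the TSS: chr5:170847001-170848000 with 96 CpGs at 45.8 points and chr5:170848001-170849000 at 68.5. The latter was also in the mix at 40.8 points, but neither was listed in the knockout comparison. FGF17 had a 3′ UTR tile at 47.7 points in the knockdown and 28.7 in the mix. This tile, with 84 CpGs and 5670 bp from the TSS, also overlaps the gene DMTN. In the knockout comparison FGF17 was higher at the TSS by 28.6 and at its last coding exon by 43.7. FGF8 had a tile at a TSS at -28.1 points and a downstream tile at 59.8, both in the knockdown alone.

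FGF7, also called keratinocyte growth factor, FGF10 and FGF22 belong to a subfamily of epithelial growth factors. FGF7 had 1 intronic tile at 32.2 points in the knockdown comparison, with no reachable CpG by the computed fragments and shared with the gene FAM227B, and FGF10 had none. FGF22 was lower in E at the intronic tile chr19:641001-642000, 1106 bp from the nearest TSS, at -44.2 points in the knockdown and -66.7 in the knockout, and it was not listed in the mix. The touching tile, 106 bp from the nearest TSS, was higher by 27.3 points in the knockdown, and an upstream tile was at 100. FGF9, a ligand of the gonad and lung, was at -28.9 points upstream of its TSS in the knockdown and at 26.9 in an intron in the knockout, while its close relative FGF20 had no listed tile among 3 reachable ones.

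The endocrine ligands were higher in E throughout the knockdown comparison. FGF19, FGF21 and FGF23 had 9 higher and 0 lower tiles there, and 5 higher and 0 lower in the mix, but 2 higher and 3 lower in the knockout comparison. FGF19, the intestinal signal that lowers bile acid synthesis, was higher by between 32.3 and 48.9 points at all 5 of its knockdown tiles, 2 of which touched at the TSS. The upstream tile chr11:69521001-69522000 was listed in all 3 comparisons, at 46.9, 27.5 and 26.9 points. A neighbouring upstream tile was at -80.0 in the knockout. FGF21, a metabolic hormone of the liver, ranged from 40.1 to 83.5 points in the knockdown, while both of its knockout tiles were lower, the upstream tile chr19:49257001-49258000 at -43.4 and a downstream tile at -28.8. The former also overlaps FUT1, as does the upstream tile chr19:49255001-49256000, at 60.0 points in the knockdown. FGF23, which lowers blood phosphate, had only a tile over its last exon, at 29.9 points in the knockdown.

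The intracellular ligands FGF11, FGF12 and FGF14 were the only kind of ligand with more lower than higher tiles in the knockdown comparison, 16 against 12. In the knockout they had 6 higher and 5 lower and in the mix 7 and 4. FGF11 changed direction within its TSS region. In the knockdown comparison 3 touching tiles, chr17:7339001-7342000, were all lower in E, with a mean of -35.6 points, the only run of 3 touching tiles with the same direction among the members. The tile chr17:7343001-7344000, with 70 CpGs over a 5′ UTR and coding exon, was higher by 81.8 points (q = 4.57e-241), and the next tile was at -25.2. The mix kept only the higher tile, at 26.0 points, and the knockout comparison listed another tile, at 29.1. Other annotated genes, among them TMEM102 for the upstream tiles, overlap these windows.

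FGF12 and FGF14 together held 23 of the 89 knockdown tiles. FGF12 had 11 lower tiles, from -100 to -44.9 points, and 4 higher ones, from 48.2 to 90.5 points. The lower tiles held between 2 and 30 CpGs with a median of 9, and the higher tiles between 29 and 103 with a median of 35. In the knockdown the losses of this gene thus lay mostly in CpG-poor DNA and the gains in CpG-denser DNA. In the knockout the medians were closer, at 19 CpGs for 3 lower tiles and 22.5 for 2 higher ones. The lower knockdown tiles lay between 139330 and 557330 bp from the canonical TSS. At an internal TSS the 5′ UTR tile chr3:192127001-192128000, with 103 CpGs, was higher by 48.2 points, while the coding exon tile at chr3:192125001-192126000 was at -48.1. The difference of direction by density was not seen over all listed tiles, where 61.6% of tiles with under 20 CpGs, 69.6% of those with 20 to 49 and 57.0% of those with 50 or more were higher in E in the knockdown comparison.

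FGF14, whose loss of function is a known cause of ataxia, was the opposite case, with 7 higher tiles and 1 lower in the knockdown comparison. The higher tiles ranged from 27.1 to 97.4 points, held 3 to 56 CpGs with a median of 16, and all lay upstream of the canonical TSS, within the introns of the longer transcripts. The lower tile, at -93.9 points, lay 119295 bp downstream of the canonical TSS. At the canonical TSS the tile chr13:102568001-102569000 with 61 CpGs was higher by 32.5 points in the knockout and 33 in the mix, and in the knockdown a tile 706 bp away was higher by 69.7. The nearby windows of this TSS were thus higher in E in both single comparisons, at different tiles. The intronic tile chr13:102869001-102870000 was listed in all 3, at 66.9, 37.7 and 60.0 points, and chr13:102649001-102650000 was at 97.4 in the knockdown and 64.2 in the mix. The knockout and the mix each had 2 lower tiles, and the tile chr13:102892001-102893000, 322706 bp upstream of the canonical TSS, was lower in both, at -63.9 and -31.1 points.

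**Figure D4:**
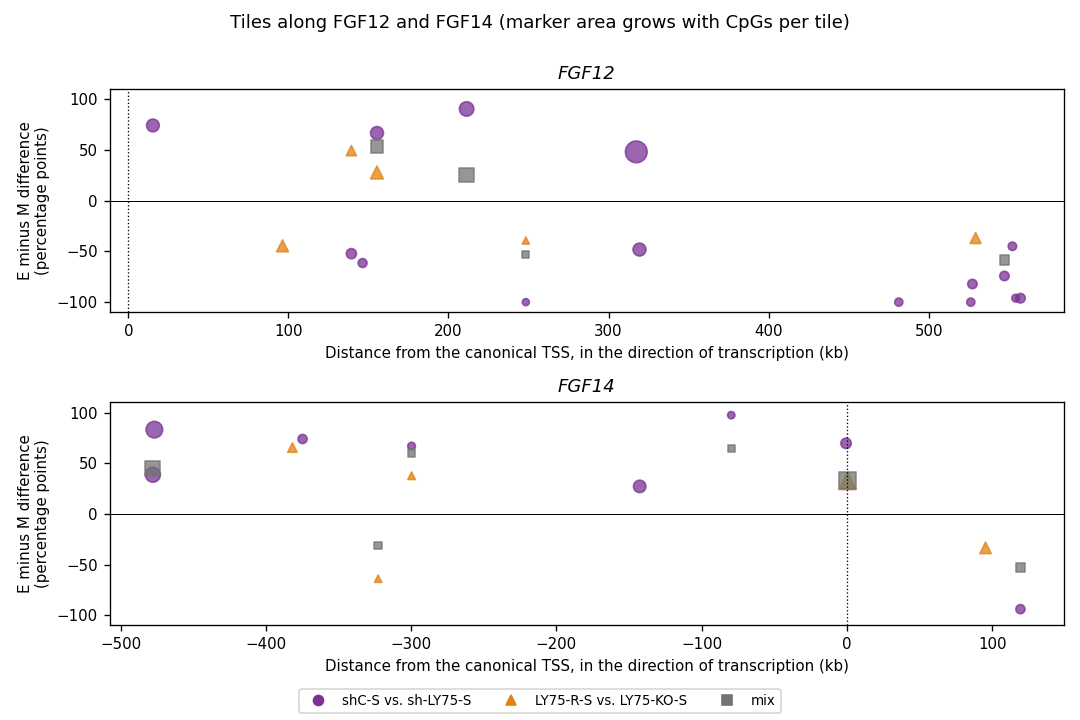
Listed tiles along FGF12 (top) and FGF14 (bottom), with the distance from the canonical TSS in the direction of transcription (kb) on the x axis and the difference, E minus M in percentage points, on the y axis. Circles are the knockdown comparison, triangles the knockout and squares the mix, and larger markers hold more CpGs. In FGF12 the 11 lower knockdown tiles are mostly small markers well downstream, while in FGF14 the 7 higher knockdown tiles all lie to the left of the canonical TSS.

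The receptors and co-receptors had 9 higher and 7 lower tiles in the knockdown comparison, 4 and 5 in the knockout, and 4 and 2 in the mix. FGFR1, the receptor most often linked with mesenchymal cells, was higher in E at an intronic tile 1219 bp from a TSS with 58 CpGs, chr8:38323001-38324000, by 43.4 points in the knockdown (q = 8.18e-228) and 35.9 in the mix. The tile chr8:38320001-38321000, farther into the same gene, was lower in both single comparisons, at -30.3 and -37.7, and was not listed in the mix. A downstream tile at 100 points in the knockdown and 77.1 in the mix overlaps LETM2. FGFR2, whose epithelial splice form binds the FGF7 subfamily, had no listed tile near a TSS in any comparison. Its intronic tiles stood at 76.2 and -39.6 points in the knockdown and at 53.4 in the knockout, and a downstream tile at -31.0.

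FGFR3 and FGFRL1 both lie near the end of the short arm of chromosome 4. FGFR3 had 2 touching tiles in its gene body at 46.3 and 32.7 points in the knockdown comparison. The former, chr4:1802001-1803000, was lower in the knockout, at -25.5. The largest FGFR3 difference was in the coding exon tile chr4:1800001-1801000, which was lower in the knockout, at -47.0, and in the mix, at -35.5, and a tile over the last exon was at 40.6 in the knockout. FGFRL1 is a receptor without a kinase domain. Its 2 tiles near the TSS were lower in E in the knockdown comparison, chr4:1004001-1005000 at -32.5 and chr4:1006001-1007000 at -53.5 (q = 1.01e-292), with 78 and 63 CpGs, and a tile downstream of the gene was at -47.3. Neither was listed in the knockout or the mix. Inside the gene, chr4:1013001-1014000 was higher in both single comparisons, at 25.7 points, close to the limit for listing, and 42.4. It was not listed in the mix.

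FGFR4 was higher at its TSS, in the 5′ UTR tile chr5:176514001-176515000 with 55 CpGs, by 35.5 points in the knockdown and 42.5 in the mix, and a coding exon tile was lower, at -100 and -60.7. In the knockout comparison only an upstream tile was listed, at -45.9. KL, the co-receptor for FGF23 that is known to be silenced by methylation in several cancers, was higher at the tile over its TSS, with 124 CpGs, by 43.8 points in the knockdown comparison alone (chr13:33590001-33591000, q = 7.13e-178). An intronic KL tile was at 62.8 in the knockout. KLB, the co-receptor for FGF19 and FGF21, had no listed tile among 14 reachable ones. The study names KLB and FGF20 among its genes with methylation alterations, under a looser adjusted p-value limit and its own annotation.

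The feedback regulators had few listed tiles. SPRY1, SPRY2 and SPRED1 had none among 6, 8 and 4 reachable tiles. SPRY4 was lower in E at chr5:141705001-141706000, 415 bp from its nearest TSS with 52 CpGs, at -47.1 points (q = 2.78e-150), and at an upstream tile, at -80.0, both in the knockdown alone and both overlapping SPRY4-AS1. In the knockout an intronic tile was higher by 65.7. SPRED2 was higher at the intronic tile chr2:65550001-65551000 in all 3 comparisons, by 25.7 points in the knockdown, 100 in the knockout and 47.3 in the mix, although this tile has no reachable CpG by the computed fragments, and at a second intronic tile by 89.5 in the knockdown and 47.0 in the mix. Its only tile near a TSS was lower, at -28.8 in the knockout. SPRED3 had a downstream tile at 75 points in the knockout and 44.7 in the mix.

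Across both single comparisons 15 member tiles in 12 genes were listed, which is 16.9% of the knockdown tiles and 34.1% of the knockout tiles of the members, beside 16.0% and 29.2% for all autosomal tiles. Of these 12 had the same direction (80.0%), beside 52.5% of the 7825 autosomal tiles listed in both. Of the 12, 9 were higher in E and 3 lower. The higher ones were in FGF4, FGF5, FGF6, FGF12, FGF14, FGF19, FGFRL1 and SPRED2, and the lower ones in FGF12, FGF22 and FGFR1. The difference was larger in size in the knockdown for 11 of the 15. Only the FGF5 and FGF22 tiles lay near a TSS. The tile with opposite directions and the widest gap was in an FGF12 intron, chr3:192305001-192306000, at -52.2 points in the knockdown and 49.4 in the knockout. All 9 member tiles listed in all 3 comparisons had the same direction in each. Since the mix was made from the same 4 libraries and set the knockout direction, this agreement was largely built in. Of the 38 tiles of the mix 34 were also listed in the knockdown and 13 in the knockout.

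**Figure D5:**
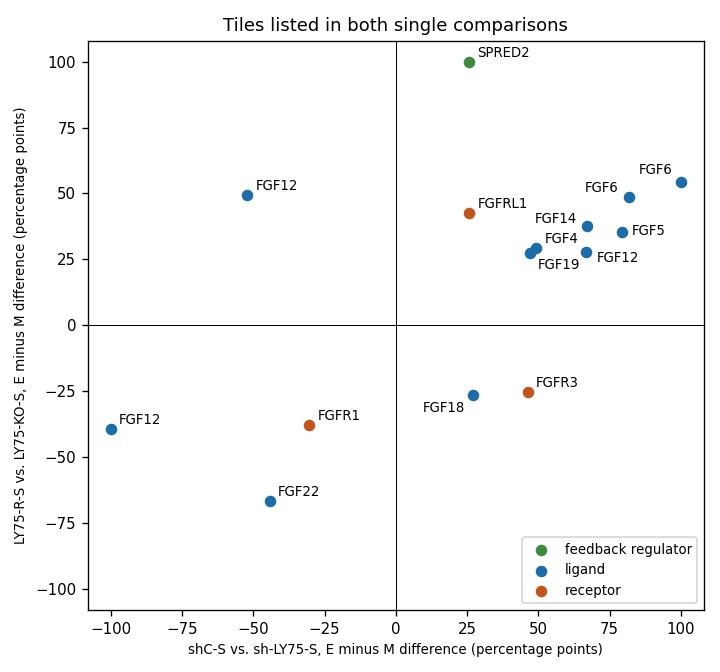
The 15 member tiles listed in both single comparisons, with the difference in the knockdown comparison on the x axis and in the knockout comparison on the y axis, both E minus M in percentage points. Colours give the role, and the 12 tiles with the same direction lie in the upper right (9) and the lower left (3), while FGF12, FGF18 and FGFR3 have 1 tile each in the other quadrants.

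The wider pathway was described with 31 further genes, namely adaptors, heparan sulfate enzymes and carriers, ERK targets and other modulators. In the knockdown comparison 24 of them (77.4%, against 60.3% of all genes) had a listed tile, 7 with higher tiles only, 8 with lower tiles only and 9 with both. In the knockout 19 (61.3%, against 46.7%) did and in the mix 18 (58.1%, against 38.2%). Their tiles were more evenly divided than those of the members, with 39 of 74 higher in E in the knockdown (52.7%, beside 62.9% for the members and 64.3% for all tiles). FLRT2, a transmembrane protein that binds FGF receptors, was higher near its TSS in all 3 comparisons. The largest differences near the TSS were 89.7 points in the knockdown, 54.9 in the knockout and 66.7 in the mix. The knockout value was at a touching tile, and a tile away from the TSS was at -100 in the knockout. GPC1, a cell surface heparan sulfate proteoglycan, had 4 tiles in the knockdown, all lower in E, of which 2 lay near a TSS. SOS1 and SHC1 were at -50.1 and -56.7 points near a TSS in the knockdown. In the knockout each had only a tile away from a TSS, higher in E at 34.6 and 43.9 points. In the mix SOS1 was at -40.1 near a TSS and SHC1 at 35.8 elsewhere. SULF2 was at -97.8 points near a TSS in the knockdown, where it had 4 higher and 9 lower tiles. The ERK phosphatase gene DUSP6, a common readout of FGF signaling, had no listed tile in any comparison.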

How the data were processed

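Genomic DNA of 4 SKOV3 clones, 1 library each, was examined by RRBS with single reads of 50 bp. Per the labels and the submitters' processing notes, reads were trimmed (Trimmomatic or Trim Galore 0.4.1), aligned to hg19 with Bismark 0.16.1 and compared with methylKit in tiles of 1000 bp. The coverage minimum, the statistical test and the way in which clones were combined for the mix are not given in the sources used here. The deposited tables used here give, per tile and comparison, the difference in percentage points of methylation with its p-value and q-value as the authors computed them, and hold no value per library. These values are reported as they stand. The tables keep only tiles with 25 points or more and q of 0.01 or less, a stricter limit than the adjusted p-value in the methods of the study, so shares of listed tiles depend on depth and CpG coverage.

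Tiles were assigned with Python 3.11.15, numpy 2.4.6 and pandas 2.3.3 to GENCODE release 44 gene spans on GRCh37 with 5 kb flanks. TSS are those of all transcripts of a gene that GENCODE tags as basic. CpGs, MspI fragments of 40 to 220 bp and sequences were read from the GRCh37 genome. Counts and medians were set beside those of all autosomal genes or tiles, with 95% Wilson intervals from scipy 1.17.1. No test across conditions was made. Members and lists were proposed with earlier results of these data known. Named tiles are those in both single comparisons, those within 2 kb of a TSS, the 3 largest per role and comparison, and the tiles of members with the most tiles. Other tiles were named after their values were seen, to account for each member. Alternatives were the gene span alone, thresholds of 50 points and of q 1e-10, other distances from a TSS, merged touching tiles and, added after seeing the data, the opposite order of subtraction in the knockout comparison and leaving out FGF12 and FGF14. The sequence of another tile near a TSS is not reported here.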

Additional observations from a re-analysis of the deposited data

Results flagged for a closer look

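At 3 member tiles the knockdown and the knockout comparison gave opposite directions, and these differences were not tested, since each clone had 1 library. The intronic FGF12 tile chr3:192305001-192306000 stood at -52.2 points in the knockdown and 49.4 in the knockout, a gap of 101.6 points. The FGFR3 tile chr4:1802001-1803000 stood at 46.3 and -25.5, a gap of 71.8 points. The intronic FGF18 tile chr5:170862001-170863000 stood at 27.2 and -26.6, a gap of 53.8 points, with both values close to the limit of 25 points for listing. None of these tiles was listed in the mix.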

How the results depend on the processing

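Of 55 alternative values for 13 counts and shares, 43 stayed within 1.5 times the reported count or, for a share, within its interval, and 12 moved. A threshold of 50 points lowered the listed member tiles to 39 in the knockdown, 11 in the knockout and 11 in the mix. It lowered the members with a tile to 18 in the knockdown, 10 in the knockout and 7 in the mix, those with a tile near a TSS to 6, 1 and 1 in the knockdown, the knockout and the mix, and the tiles with the same direction in both single comparisons to 1, and it moved the share of mix tiles higher in E to 63.6%. Within 5 kb of a TSS, 13 members had a tile in the knockout comparison. With the opposite order of subtraction in the knockout comparison, which the deposited names alone would allow, 3 of the shared tiles had the same direction and 45.5% of the knockout tiles were higher in E. Without FGF12 and FGF14, 68.2% of the knockdown tiles and 89.3% of the mix tiles were higher in E. No replicate could be left out and no paired analysis was possible because each clone had 1 library. Depth is unknown, so a locus with no listed tile is not shown to be unchanged.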
